A study of Rattus norvegicus with 16 samples.

Results

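The genes of glutathione synthesis and recycling were followed in 2 rat kidney cell lines that had been kept together at normal or acidic pH. The set was defined by gene name and covered cystine uptake (Slc7a11), synthesis (Gclc, Gclm and Gss), reduction (Gsr and Glrx) and breakdown (Ggt1, Ggt5, Ggct and Oplah). Of the 10 names, 9 had a row among the 32623 genes of the count table, of which 22082 had a count, and these 9 all passed edgeR's filter on low counts in each comparison. Ggt5 was not analysed here.

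NRK-52E, an epithelial line from rat kidney that the series describes as derived from proximal tubule, was cultured on porous filter inserts above wells that held NRK-49F, a fibroblast line from rat kidney, so that both lines shared one medium. After a serum-free period, the co-cultures spent 48 h in medium of pH 7.4 (control) or pH 6.0 (acidosis). The sample labels write these values as 7 and 6. The comparisons address how each line responds to extracellular acidosis while the other line is present. Poly(A)-enriched RNA gave 16 libraries, 4 for each cell line and pH, which are named here by the numbers N1 to N16 of their labels.

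Total counts per library ranged from 17760185 to 20612657 in NRK-52E at pH 7.4, from 16844811 to 23856187 in NRK-52E at pH 6.0, from 17518187 to 27607214 in NRK-49F at pH 7.4 and from 16201084 to 34784862 in NRK-49F at pH 6.0. Levels are given in FPM, fragments scaled to 1000000 per library with TMM factors. They do not account for transcript length, so that they were compared between groups and not between genes. No source states that the libraries of a group came from separate cultures, so p-values measure the spread between these samples, which may be technical. A gene was called a differentially expressed gene (DEG) when its adjusted p was below 0.01 in both edgeR and DESeq2. Log2 fold changes, standard errors (SE) and adjusted p-values are those of edgeR.

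Glutathione is a small peptide of glutamate, cysteine and glycine that cells use to reduce peroxides, disulfides and electrophiles. Its cysteine often enters as cystine, its synthesis is limited by glutamate-cysteine ligase, and the oxidized form is returned to the reduced form by glutathione reductase at the cost of NADPH. Outside the cell it is cut by gamma-glutamyl transferase, an enzyme known for its abundance on the brush border of the proximal tubule.

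The labelled cell types were compared with marker genes. Among the 8 epithelial markers, Ocln, a tight junction gene, averaged 41.2 FPM at pH 7.4 in NRK-52E, while the 4 NRK-49F libraries at pH 7.4 had no count of it and those at pH 6.0 averaged 0.0991 FPM. Esrp1 had no count in any library, and Epcam, Krt18 and Cldn4 stayed below 1 FPM in every group mean. Krt8 gave most of the fragments of the list in both lines and was lower in NRK-52E, at 430 FPM against 848 FPM in NRK-49F at pH 7.4, whereas at pH 6.0 it was higher in NRK-52E, at 316 FPM against 206 FPM (log2 difference 0.60, edgeR adjusted p = 2.19e-04). Cdh1, the E-cadherin gene, averaged 1.62 FPM in NRK-52E at pH 7.4. Of the 6 proximal tubule markers, Aqp1 alone exceeded 10 FPM in NRK-52E (34.4 FPM at pH 7.4), Slc34a1 was at 0 and Lrp2 at 0.634 FPM. The 6 markers summed to between 27.1 and 44.4 FPM in NRK-52E and between 19.2 and 30.6 FPM in NRK-49F at pH 7.4, and to between 24.3 and 33.1 FPM and between 25.9 and 72.7 FPM at pH 6.0. Most markers of the proximal tubule were thus at or near 0, and the line is called by its name below.

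Fibroblast markers were present in both lines. Col1a1 averaged 6205 FPM in NRK-49F and 23.6 FPM in NRK-52E at pH 7.4, and Pdgfra 392 and 0.286 FPM. In contrast, Col3a1 averaged 6221 FPM in NRK-52E at pH 7.4 and gave most of the fragments of the 8 fibroblast markers there, against 458 FPM in NRK-49F. Thy1 had no count in any library. Cdh5, an endothelial marker, stayed at or below 0.743 FPM, and Pecam1 was not analysed here.

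Marker levels also moved with pH. Summed over the 8 epithelial markers, NRK-52E gave 508, 470, 432 and 493 FPM at pH 7.4 in N1, N2, N5 and N6, and 364, 302, 332 and 309 FPM at pH 6.0 in N3, N4, N7 and N8. All 4 epithelial markers that could be tested in NRK-52E fell, beside 28.5% of all tested genes, and Krt8 made up most of the sum. In NRK-49F the sum went from 824, 785, 949 and 842 FPM in N9, N10, N13 and N14 to 206, 221, 204 and 199 FPM in N11, N12, N15 and N16, with a log2 fold change of −2.06 for Krt8 (edgeR adjusted p = 4.80e-08). The 8 fibroblast markers summed to 13587, 14073, 14505 and 14869 FPM in NRK-49F at pH 7.4 (N9, N10, N13 and N14) and to 11890, 11409, 11899 and 10088 FPM at pH 6.0 (N11, N12, N15 and N16). Here 4 of 6 tested markers fell, beside 19.4% of all tested genes, and 0 rose by both tools, although Col1a1, at a log2 fold change of 0.40, passed in DESeq2 (adjusted p = 5.82e-04) and missed in edgeR (0.0103). Vim gave the most fragments of this sum at pH 7.4 and Col1a1 at pH 6.0. In NRK-52E the same markers summed to between 6785 and 7201 FPM at pH 7.4 and between 2233 and 3552 FPM at pH 6.0, and 4 of 5 tested markers fell, beside 28.5% of all tested genes. Of the leukocyte markers, Ptprc had no count in any library, while Cd68, a lysosomal protein also found outside leukocytes, rose in NRK-49F from 62.3, 72.9, 97.1 and 92.5 FPM to 224, 226, 263 and 258 FPM. In NRK-52E, Cd68 stayed between 1.31 and 2.70 FPM. The part of these marker changes in the glutathione results was not tested. Fewer cells that express a gene and less RNA of it per cell cannot be told apart in such bulk libraries.

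In NRK-52E cells, acidosis raised 5 of the 9 measured glutathione genes, lowered 2 and left 2 that were not DEGs. Among all 13735 genes tested in this line, 28.2% were DEGs with higher and 28.5% DEGs with lower expression at pH 6.0. The glutathione genes had a median log2 fold change of 0.84, where all tested genes had 0.00. Among these DEGs, Gclm and Gsr had the largest rises, and Oplah and Glrx fell. In NRK-49F cells, 7 of the 9 genes rose and 2 fell, against a background of 18.4% DEGs with higher and 19.4% with lower expression among 13339 tested genes. Their median log2 fold change was 1.13, where that of all tested genes was −0.00. The genes that rose by the largest factors in this line were Gclm, Gclc, Ggt1 and Slc7a11, and Glrx and Oplah fell here too.

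**Figure D1:**
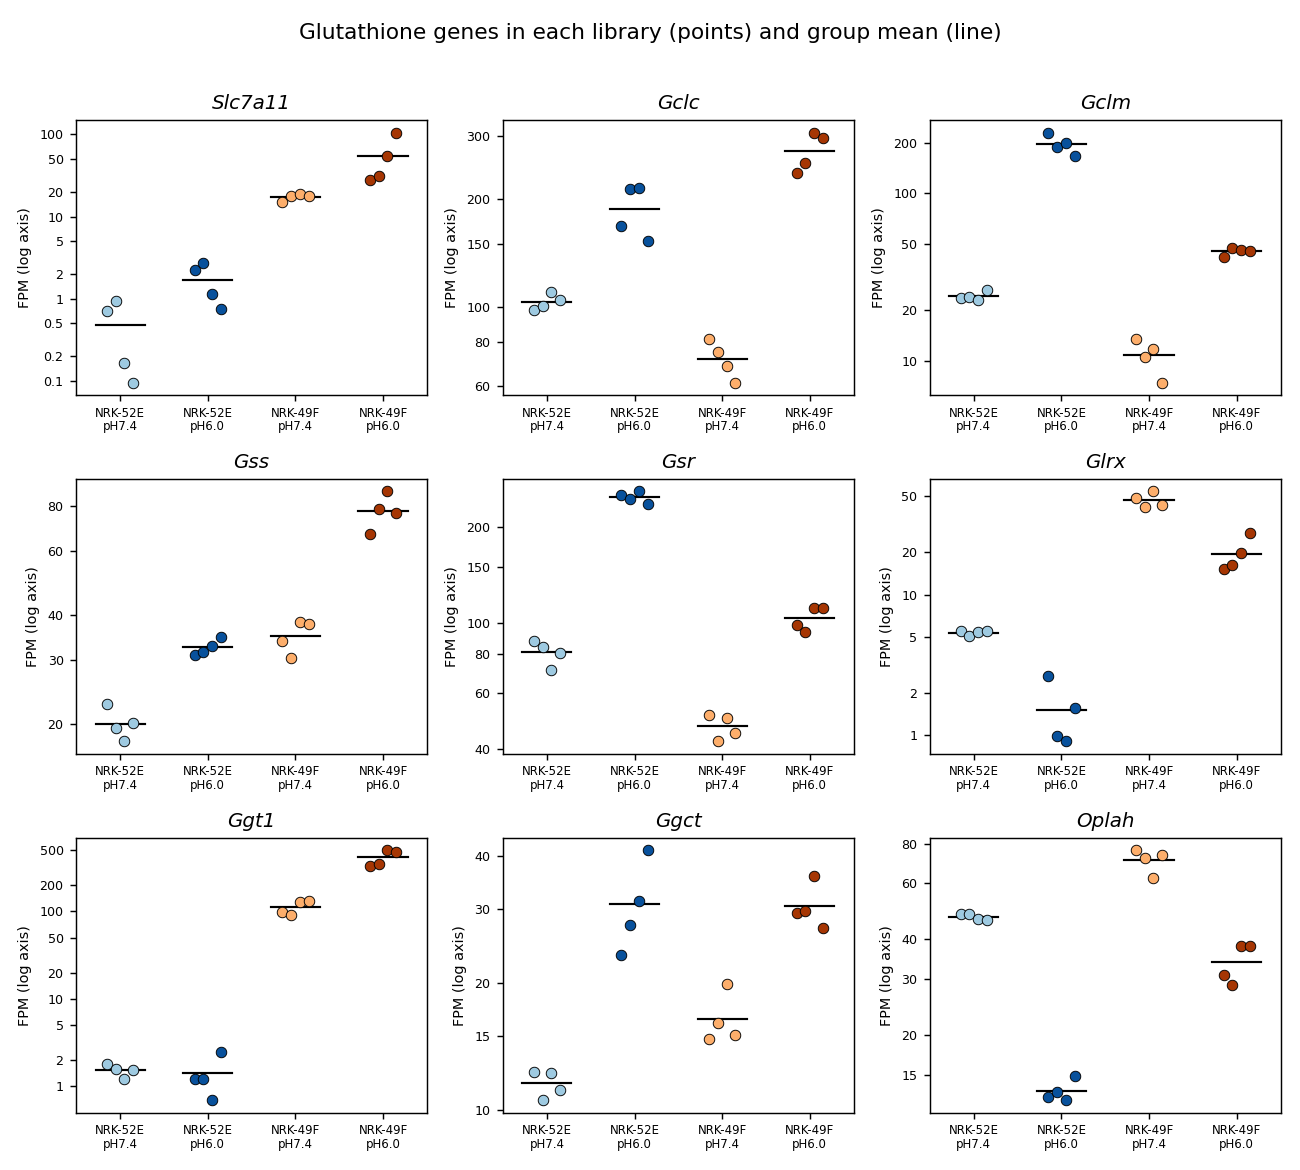
Level of each glutathione gene in every library (FPM, log axis) over the 4 groups of cell line and pH. Points are single libraries and lines are group means of 4 libraries. Gclm lay between 168 and 230 FPM in NRK-52E at pH 6.0, above the 23.1 to 26.4 FPM at pH 7.4, while Ggt1 stayed at or below 2.49 FPM in every NRK-52E library.

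Within the set, cystine uptake is represented by Slc7a11 alone, the transporter subunit that exchanges cystine for glutamate. In NRK-49F it was measured at pH 7.4 at 15.1 FPM in N9, 17.8 in N10, 18.8 in N13 and 17.6 in N14, and at pH 6.0 at 27.7 FPM in N11, 31.3 in N12, 54.4 in N15 and 105 in N16. All 4 acidic libraries lay above all 4 controls, and they spread widely, with N16 highest. Some markers had the same order over N11, N12, N15 and N16, such as Aqp1 (24.7, 28.3, 44.0 and 69.4 FPM) and Pdgfra (222, 267, 418 and 564 FPM). In contrast, Col1a1, Vim and Krt8 were lowest in N16. The part of these marker differences in the spread of Slc7a11 was not tested. The log2 fold change was 1.64 (SE 0.34, edgeR adjusted p = 0.00158), a rise of 3.12-fold. The column names carry a further number of unknown meaning, 20 for N9 to N12 and 21 for N13 to N16. Within number 20 the log2 fold change was 0.84, within number 21 it was 2.12, and without N16 it was 1.11. The gene was no longer a DEG by both tools when all 16 libraries were fitted together, although edgeR's adjusted p was 0.00195 in that fit.

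In NRK-52E, Slc7a11 was close to the detection limit. At pH 7.4 it had 15 counts in N1, 23 in N2, 4 in N5 and 2 in N6 (0.703, 0.942, 0.166 and 0.0952 FPM), and at pH 6.0 it had 36 in N3, 60 in N4, 28 in N7 and 16 in N8 (2.20, 2.70, 1.15 and 0.752 FPM). The ranges overlapped, since N8 at pH 6.0 was below N2 at pH 7.4. The log2 fold change of 1.78 (SE 0.61) did not reach the threshold (edgeR adjusted p = 0.0223). In this line the further number is 21 for N1 to N4 and 22 for N5 to N8, and within each pH both libraries of number 21 were above both of number 22. With this number as a covariate, the log2 fold change was 1.95 and the gene was a DEG (edgeR adjusted p = 8.76e-04). It was also a DEG without N8 (log2 fold change 2.02, edgeR adjusted p = 0.00789), and without N2 the value was 2.36. The mean level in NRK-52E was 2.75% of that in NRK-49F at pH 7.4 and 3.11% at pH 6.0, while Col1a1 stood at 0.380% and 0.218% and Pdgfra at 0.0731% and 0.0153%.

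Synthesis starts with glutamate-cysteine ligase, made of the catalytic subunit Gclc and the modifier subunit Gclm, which raises the enzyme's efficiency. Gclm in NRK-52E was measured at pH 7.4 at 23.7 FPM in N1, 24.0 in N2, 23.1 in N5 and 26.4 in N6, and at pH 6.0 at 230 FPM in N3, 190 in N4, 200 in N7 and 168 in N8. The groups were far apart, and the spread within each was small beside the gap. This is a log2 fold change of 3.0 (SE 0.11, edgeR adjusted p = 3.14e-08), or 7.99-fold. In NRK-49F the values were 13 FPM in N9, 11 in N10, 11.7 in N13 and 7.39 in N14 at pH 7.4, and 41.8 in N11, 47.4 in N12, 46.0 in N15 and 45.4 in N16 at pH 6.0. The groups again did not overlap, and N14 was the lowest control. The log2 fold change was 2.06 (SE 0.16, edgeR adjusted p = 1.28e-06). The rise was larger in NRK-52E: the difference of the log2 fold changes, NRK-52E minus NRK-49F, was 0.93 (SE 0.20, edgeR adjusted p = 7.28e-04).

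Gclc showed the opposite order of the lines. In NRK-52E it went from 98.2 FPM in N1, 100.5 in N2, 110 in N5 and 104 in N6 at pH 7.4 to 168 in N3, 213 in N4, 216 in N7 and 153 in N8 at pH 6.0. All acidic libraries were above all controls, with N8 and N3 nearest to them. In NRK-49F the values were 81.3 FPM in N9, 74.9 in N10, 68.4 in N13 and 61.5 in N14 at pH 7.4, and 236 in N11, 252 in N12, 307 in N15 and 297 in N16 at pH 6.0. Here the gap between the groups was wider than either range. NRK-52E cells thus had a log2 fold change of 0.84 (SE 0.11, edgeR adjusted p = 6.98e-05) and NRK-49F cells one of 1.92 (SE 0.12, edgeR adjusted p = 1.73e-07). The difference between the lines was −1.09 (SE 0.17, edgeR adjusted p = 3.86e-05). Within number 22 alone, with 2 libraries per pH, Gclc was not a DEG in NRK-52E (log2 fold change 0.75, edgeR adjusted p = 0.0219). Thus the mRNA of the modifier subunit rose more in NRK-52E and that of the catalytic subunit more in NRK-49F.

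Expression of Gss, which encodes the synthetase that adds glycine in the last step, rose in both lines. NRK-52E cells held 20.1 ± 1.99 FPM at pH 7.4 and 32.6 ± 1.65 FPM at pH 6.0, whereas NRK-49F cells held 35.1 ± 3.63 and 77.5 ± 8.56 FPM (mean ± SD, n = 4). No library overlapped between the pH groups of either line. In NRK-52E, Gss was not a DEG with the 2 libraries per pH of number 21 (log2 fold change 0.53) or of number 22 (0.81). The log2 fold changes were 0.68 and 1.13, and their difference of −0.46 missed the threshold in edgeR (adjusted p = 0.0162). That difference passed with DESeq2's own interaction test and with scaling by library totals alone (log2 difference −0.70), and also without N3, without N8 or without N11.

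Because both ligase subunits rose in both lines, the stretch around their transcription starts was examined for the antioxidant response element core TGACNNNGC, which Nrf2 with a small Maf partner binds, and for the C/EBP-ATF composite core TGATGCAA, which Atf4 dimers bind. The RefSeq promoter table (build GRCr8) held windows from 250 bases before to 50 bases after the start for 7 of the 10 genes: Glrx, Slc7a11, Gclm, Gss, Ggct, Gclc and Ggt1. Searched on both strands, the first core occurred in 12.1% and the second in 0.795% of all 33469 windows of this length. Gclm was the single gene of these 7 with a match to the first core, and none of the 7 matched the second. The Gclm window is chr2:213031885-213032184 on the plus strand, with the match in capitals at chr2:213031963-213031971, 172 bases before the start, where it reads TGACTAAGC on the reverse strand. The Gclc window, chr8:87510226-87510525 on the plus strand, is shown for comparison and has no match.
Gclm: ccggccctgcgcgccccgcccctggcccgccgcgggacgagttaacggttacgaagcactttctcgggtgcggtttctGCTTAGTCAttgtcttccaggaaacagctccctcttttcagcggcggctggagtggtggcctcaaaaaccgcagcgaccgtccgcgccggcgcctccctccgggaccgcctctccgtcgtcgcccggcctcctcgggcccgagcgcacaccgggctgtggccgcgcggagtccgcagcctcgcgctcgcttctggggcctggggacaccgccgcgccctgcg
Gclc: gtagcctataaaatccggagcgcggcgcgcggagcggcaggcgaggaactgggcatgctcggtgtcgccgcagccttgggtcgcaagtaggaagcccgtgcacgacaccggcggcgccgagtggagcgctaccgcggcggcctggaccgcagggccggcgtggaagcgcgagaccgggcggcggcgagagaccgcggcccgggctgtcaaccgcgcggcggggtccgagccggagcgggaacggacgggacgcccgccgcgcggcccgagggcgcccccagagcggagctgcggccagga
A match is a description of letters and not a binding site, and the missing match in Gclc says nothing about sites outside its window.

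Expression of Gsr, which encodes the reductase of oxidized glutathione, rose in both lines. In NRK-52E it was measured at pH 7.4 at 87.5 FPM in N1, 83.6 in N2, 71.0 in N5 and 80.5 in N6, and at pH 6.0 at 253 in N3, 245 in N4, 259 in N7 and 236 in N8. For NRK-49F the values were 51.4 FPM in N9, 42.3 in N10, 50.3 in N13 and 45.1 in N14 at pH 7.4, and 98.8 in N11, 93.8 in N12, 112 in N15 and 111 in N16 at pH 6.0. Every acidic library was above every control of its line, and the acidic NRK-52E libraries formed the tightest group relative to their mean. For NRK-52E the log2 fold change was 1.60 (SE 0.085, edgeR adjusted p = 1.53e-07) and for NRK-49F 1.12 (SE 0.096, edgeR adjusted p = 2.33e-06). The difference between the lines was 0.47 (SE 0.13, edgeR adjusted p = 0.00534). It no longer passed when any of N3, N5, N6, N7, N9, N11, N12 or N13 was left out, with an adjusted p of up to 0.0320 without N3, and scaling by library totals alone gave 0.23 (edgeR adjusted p = 0.111).

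Glrx encodes glutaredoxin, which uses glutathione to reduce protein disulfides, and it fell in both lines. In NRK-52E it was at 5.48 FPM in N1, 5.04 in N2, 5.39 in N5 and 5.5 in N6 at pH 7.4, and at 2.63 in N3, 0.989 in N4, 0.902 in N7 and 1.55 in N8 at pH 6.0. The controls lay close together, and the acidic libraries were all lower but scattered. In NRK-49F the controls were at 48.8 FPM in N9, 41.8 in N10, 54.4 in N13 and 43.4 in N14, and the acidic libraries at 15.1 in N11, 16.3 in N12, 19.6 in N15 and 27.3 in N16. This gave a log2 fold change of −1.86 for NRK-52E (SE 0.32, edgeR adjusted p = 3.48e-04) and −1.28 for NRK-49F (SE 0.17, edgeR adjusted p = 6.67e-05). Their difference of −0.62 missed the threshold (edgeR adjusted p = 0.139), but without N3 it was −1.09 and passed (edgeR adjusted p = 0.00562). With number 21 alone, Glrx was not a DEG in NRK-52E (−1.61, edgeR adjusted p = 0.0215).

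**Figure D2:**
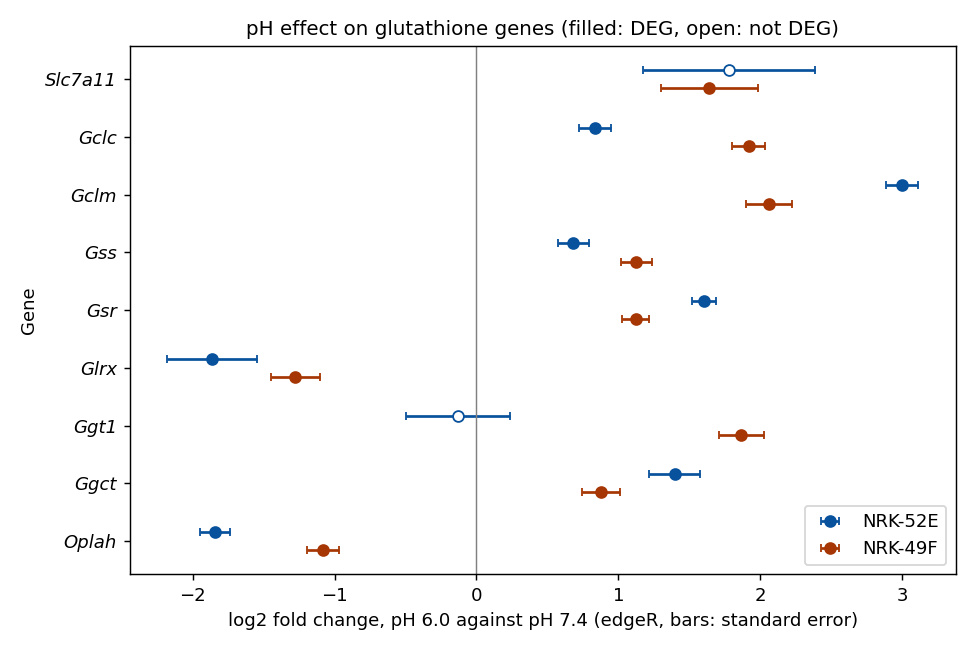
Log2 fold change of each glutathione gene at pH 6.0 against pH 7.4 in NRK-52E and NRK-49F (x axis, edgeR, bars are ± SE, 8 libraries per line). Filled points are DEGs, and the open points are Slc7a11 and Ggt1 in NRK-52E. Glrx and Oplah lie left of 0 in both lines.

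Breakdown genes moved in different directions. Ggt1, the gamma-glutamyl transferase of the cell surface, was far lower in NRK-52E than in NRK-49F. Libraries of the latter line had it at 98.4 FPM in N9, 91.5 in N10, 127 in N13 and 131 in N14 at pH 7.4, and at 331 in N11, 351 in N12, 500.4 in N15 and 470.5 in N16 at pH 6.0. All acidic libraries exceeded all controls, and N15 and N16 exceeded N11 and N12. The rise was 3.65-fold, a log2 fold change of 1.87 (SE 0.16, edgeR adjusted p = 1.96e-06).

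In NRK-52E, Ggt1 had 38, 39, 29 and 32 counts at pH 7.4 (1.78, 1.60, 1.2 and 1.5 FPM in N1, N2, N5 and N6) and 20, 27, 17 and 53 counts at pH 6.0 (1.22, 1.21, 0.697 and 2.49 FPM in N3, N4, N7 and N8). The groups overlapped, and N7 and N8 at pH 6.0 held the lowest and the highest value. A log2 fold change of −0.13 (SE 0.37, edgeR adjusted p = 0.763) was not a DEG call, and its 95% interval ran from −0.85 to 0.59. The estimate changed sign without N7 (0.11) and within number 22 (0.21). The response differed between the lines by −2.02 (SE 0.36, edgeR adjusted p = 1.77e-04). Relative to NRK-49F, the mean level in NRK-52E was 1.36% at pH 7.4 and 0.340% at pH 6.0.

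Ggct, which splits gamma-glutamyl amino acids into 5-oxoproline and the free amino acid inside the cell, rose in both lines. Its mean went from 11.6 ± 0.857 to 30.9 ± 7.73 FPM in NRK-52E, where the acidic libraries spread from 23.3 FPM in N3 to 41.4 in N8. In NRK-49F it went from 16 ± 2.36 to 30.5 ± 3.79 FPM (SD, n = 4). The log2 fold changes were 1.40 (SE 0.18, edgeR adjusted p = 4.61e-05) and 0.88 (SE 0.13, edgeR adjusted p = 1.89e-04), with no overlap of the pH groups. With number 21 alone, Ggct was not a DEG in NRK-49F (0.83, edgeR adjusted p = 0.0200). Their difference of 0.50 did not pass (edgeR adjusted p = 0.0657).

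Oplah, the 5-oxoprolinase that turns 5-oxoproline back into glutamate, fell in both lines. NRK-52E had 48.2 FPM in N1, 48.2 in N2, 46.3 in N5 and 46.0 in N6 at pH 7.4, and 12.8 in N3, 13.2 in N4, 12 in N7 and 14.9 in N8 at pH 6.0. NRK-49F had 76.4 FPM in N9, 72.1 in N10, 62.3 in N13 and 73.8 in N14 at pH 7.4, and 30.9 in N11, 28.8 in N12, 38.0 in N15 and 38.1 in N16 at pH 6.0. In each line the groups were separated by more than the range within them. Log2 fold changes were −1.84 for NRK-52E (SE 0.11, edgeR adjusted p = 2.35e-07) and −1.08 for NRK-49F (SE 0.11, edgeR adjusted p = 8.69e-06). The fall was larger in NRK-52E by a log2 difference of −0.77 (SE 0.15, edgeR adjusted p = 3.81e-04). Ggct and Oplah, which make and use 5-oxoproline, thus moved in opposite directions in both lines.

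Over the 9 genes, the pH response differed between the lines in 5 at an adjusted p below 0.01 in edgeR, more positive in NRK-52E for Gclm and Gsr and more negative for Gclc, Ggt1 and Oplah. Of all 14679 genes in this test, 19.4% had a more positive and 17.6% a more negative response in NRK-52E. The median difference was −0.46 for the glutathione genes and −0.01 for all genes tested.

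Levels of the lines were also compared at each pH, with no adjustment for the further number of the column names. At pH 7.4, 3 glutathione genes were higher in NRK-52E and 5 lower, where 33.3% of 14026 tested genes were higher and 33.3% lower. The higher ones were Gclm, with a log2 difference of 1.26, Gsr with 0.85 and Gclc with 0.61. Ggt1 (−6.11), Slc7a11 (−5.07), Glrx (−3.05), Gss (−0.72) and Oplah (−0.51) were lower, and Ggct missed the threshold at −0.42 (edgeR adjusted p = 0.0107). Ggct passed without N9 (−0.48, edgeR adjusted p = 0.00983) or without N14 (−0.47, 0.00950). Without N2, the difference of Slc7a11 was −5.67. Oplah was not called with library totals alone (−0.21, edgeR adjusted p = 0.0508).

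At pH 6.0, 2 genes were higher in NRK-52E and 6 lower, against 28.6% and 31.3% of 13796 tested genes. Gclm (2.11) and Gsr (1.24) were higher. Gclc had changed sides, with a log2 difference of −0.56 (SE 0.14, edgeR adjusted p = 0.00262). This call was lost without N3 (edgeR adjusted p = 0.0112), without N15 (0.0105) and with library totals alone (log2 difference −0.41, edgeR adjusted p = 0.0211), while the sign stayed negative. Ggt1 (−8.22), Slc7a11 (−5.04), Glrx (−3.74), Oplah (−1.36) and Gss (−1.26) were lower, and Ggct had a log2 difference of 0.00. The order of the group means from low to high was NRK-49F control, NRK-52E control, NRK-52E acidosis and NRK-49F acidosis for Gclc. For Gclm and Gsr it was NRK-49F control, NRK-52E control, NRK-49F acidosis and NRK-52E acidosis. In none of these orders did the ranges of neighbouring groups overlap. The middle pair of the latter order differs in both line and pH and was not tested.

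Other genes of the pathway were read from 5 lists of 38 genes. In NRK-52E, 33 of them could be tested, 13 rose and 11 fell, where 28.2% of all tested genes rose and 28.5% fell. In NRK-49F, 32 could be tested, 8 rose and 8 fell, where the shares of all tested genes were 18.4% and 19.4%. With the 2 libraries per pH of number 21 alone, 3 genes were higher and 3 lower in NRK-49F, where DEGs among all genes were 14.3%, beside 5039 of 13339 with all 8 libraries. In NRK-52E, 8 were higher with number 21 alone and 7 lower with number 22 alone, where DEGs among all genes were 37.7% and 20.2%, beside 7793 of 13735 with all 8 libraries. Some DEGs of these lists named below lost their call in the smaller fits. In NRK-52E with number 21 alone, these were Mat2b (log2 fold change 0.49), Glrx5 (0.72), Slc25a39 (0.66, edgeR adjusted p = 0.0191), Glo1 (0.23, edgeR adjusted p = 0.240) and Esd (0.45). With number 22 alone the lost calls were those of Slc3a1 (−1.60), Mat2b (0.42), Ggact (−1.44), Glrx5 (1.06), Slc25a39 (0.78, edgeR adjusted p = 0.0163) and Glo1 (0.67, edgeR adjusted p = 0.0307). In NRK-49F with number 21 alone they were those of Slc3a2 (0.50), Slc3a1 (−0.79), Cndp2 (−0.53), Abcc1 (2.18, although edgeR adjusted p = 0.00255), Abcc5 (−0.82), Hagh (0.62) and Adh5 (0.46, edgeR adjusted p = 0.124).

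For cysteine supply and use, 9 of 13 genes were tested in each line. In NRK-52E 3 rose and 3 fell, and in NRK-49F 4 rose and 1 fell, beside 28.2% and 28.5% of all tested genes in the former and 18.4% and 19.4% in the latter line. In NRK-52E, Slc3a2, the partner chain that Slc7a11 needs at the membrane, had the largest rise, from 130, 119, 111 and 117 FPM in N1, N2, N5 and N6 to 1920, 1521, 1549 and 977 FPM in N3, N4, N7 and N8. That was a log2 fold change of 3.63 (SE 0.19, edgeR adjusted p = 1.28e-07), with N8 the lowest acidic library. In NRK-49F the change was 0.74, and the difference between the lines was 2.87 (SE 0.22, edgeR adjusted p = 1.66e-08). Slc7a11 itself had between 16 and 60 counts in the acidic NRK-52E libraries, and cystine uptake was not measured. Slc1a4, a carrier of small neutral amino acids, rose in both lines, with log2 fold changes of 3.39 for NRK-52E and 1.35 for NRK-49F. Mat2b rose in NRK-52E (0.47), a call lost without N2, N5 or N6 and with library totals alone (0.25). Slc7a9 (−2.20) and Slc3a1 (−1.84), the chains of the apical cystine transporter, fell in NRK-52E together with the taurine enzyme Csad (−1.03). In NRK-49F, methionine synthase Mtr rose most (2.60), 3 further genes including Slc1a4 and Slc3a2 rose, and Slc3a1 fell (−0.86), a call lost without N10 (edgeR adjusted p = 0.0101). Csad was not a DEG in NRK-49F with all 8 libraries (−0.42, edgeR adjusted p = 0.0173), but was one without N16 (−0.53, edgeR adjusted p = 0.00313), with the further number as a covariate (−0.44, 0.00360) and within number 20 (−0.65, 1.46e-04). Mtr in NRK-52E, at 0.85 (edgeR adjusted p = 0.0237), was a DEG without N8 (1.08, edgeR adjusted p = 6.71e-04). In NRK-49F, N13 was the lowest control for Mtr (3.23 FPM, beside 6.63, 8.14 and 6.84 in N9, N10 and N14). List medians were 0.06 for NRK-52E and 0.60 for NRK-49F.

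In the list of other breakdown genes, 3 of 12 tested genes were higher and 7 lower in NRK-52E, beside 28.2% and 28.5% of all tested genes. Of 11 tested in NRK-49F, 0 were higher and 6 lower, beside 18.4% and 19.4%. Medians were −0.94 and −0.52, where those of all tested genes were 0.00 and −0.00. Chac1, which degrades glutathione inside the cell, rose in NRK-52E from 10.1, 9.30, 8.66 and 8.71 FPM in N1, N2, N5 and N6 to 73.4, 61.5, 49.8 and 50.5 FPM in N3, N4, N7 and N8. There its log2 fold change was 2.66 (SE 0.15, edgeR adjusted p = 2.08e-07), that of NRK-49F was 0.12 (edgeR adjusted p = 0.740), and the difference of 2.53 passed (edgeR adjusted p = 5.56e-06). Cndp2 (1.12) and Nit1 (0.75) rose as well in NRK-52E. Chac2, of the same list, fell in NRK-52E (−1.40, edgeR adjusted p = 7.28e-04) and was not a DEG in NRK-49F (−0.10, edgeR adjusted p = 0.631). Surface peptidases that finish the breakdown outside the cell fell in both lines: Anpep had log2 fold changes of −4.55 and −1.47 and Dpep1 of −3.94 and −4.08, the value of NRK-52E being given before that of NRK-49F. The size of the Dpep1 falls rests on few counts. Per library, it had 72 to 106 counts in NRK-52E controls and 3 to 12 in the acidic libraries. In NRK-49F these were 37 to 70 and 3 to 6. Dpep1 in NRK-52E was at −4.54 without N4. In NRK-49F it was at −3.12 within number 20 and at −4.94 within number 21, and it was a DEG in both fits. Ggact fell in both lines (−1.70 and −1.83), and Cndp2 fell in NRK-49F (−0.52), with a difference between the lines of 1.62 (edgeR adjusted p = 2.01e-08). Ggt6 had 19, 20, 13 and 18 counts in the NRK-52E controls and none in the 4 acidic libraries, which is at least 21.6-fold lower when 3 counts over the group are taken as the floor. With Ggt6 at this bound, the list median in NRK-52E was again −0.94. In NRK-49F, 0 genes of this list with a positive change passed in edgeR or in DESeq2, and 0 had an unadjusted edgeR p below 0.05.

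Of the other 3 glutaredoxins, Glrx3 (1.64) and Glrx5 (0.90) rose in NRK-52E, beside 28.2% of all tested genes. In NRK-49F, 0 of the 3 passed in edgeR or DESeq2 and 0 had an unadjusted edgeR p below 0.05, with log2 fold changes between 0.03 and 0.17, beside 18.4% of all tested genes higher and 19.4% lower. The difference between the lines was 1.59 for Glrx3 (edgeR adjusted p = 6.39e-07) and 0.72 for Glrx5 (edgeR adjusted p = 0.00950), and the latter was lost in 12 of the 16 fits with 1 library left out (log2 differences from 0.55 to 0.84 over the 16) and with library totals alone (0.48).

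Among 6 transporters of glutathione and its conjugates, 5 were tested, and 2 rose and 1 fell in each line, beside 28.2% and 28.5% of all tested genes in NRK-52E and 18.4% and 19.4% in NRK-49F. Abcc4 rose in both (2.03 and 1.70), and Abcc5 fell in both (−0.76 and −0.86). Slc25a39, which carries glutathione into mitochondria, rose in NRK-52E (0.73), and Abcc1, an exporter of glutathione conjugates, rose in NRK-49F (2.02). In NRK-52E, Abcc1 was not a DEG with all 8 libraries (0.37, edgeR adjusted p = 0.261) but was one without N8 (0.60, edgeR adjusted p = 0.00933). The responses of Slc25a39 and Abcc1 also differed between the lines, by 0.81 for Slc25a39 (edgeR adjusted p = 4.58e-04) and −1.66 for Abcc1 (edgeR adjusted p = 0.00306). For Abcc1, N13 was the lowest NRK-49F control (14.9 FPM, beside 38.3, 42.9 and 47.4 in N9, N10 and N14). N8 was its lowest acidic NRK-52E library (15.8 FPM, beside 28.5, 51.0 and 40.2 in N3, N4 and N7). With 1 library left out, the Abcc1 difference ran from −1.91 to −1.41 and still passed (edgeR adjusted p up to 0.00736). Leaving out N13 and N8 together was not tested.

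Of 4 enzymes that use glutathione as a cofactor, 3 rose in NRK-52E, Hagh (1.34), Esd (0.72) and Glo1 (0.46), and 2 in NRK-49F, Hagh (0.76) and Adh5 (0.48), beside 28.2% and 18.4% of all tested genes. The call of Glo1 was lost with library totals alone (0.25), with the further number as a covariate, within either number and without any 1 of N2, N3, N5, N6, N7 or N8. That of Adh5 was lost in the fit of all 16 libraries, within number 21 and without any 1 of N9, N10, N12, N14, N15 or N16.

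Genes of the known regulators were read as well. Nfe2l2, which encodes Nrf2, was measured in NRK-52E at 156 FPM in N1, 144 in N2, 139 in N5 and 142 in N6 at pH 7.4, and at 328 in N3, 268 in N4, 283 in N7 and 230 in N8 at pH 6.0. In NRK-49F it was at 407 FPM in N9, 405 in N10, 417 in N13 and 340 in N14 at pH 7.4, and at 283 in N11, 303 in N12, 332 in N15 and 312 in N16 at pH 6.0. The acidic libraries were all higher in NRK-52E and all lower in NRK-49F, where N14 stood close to them. The log2 fold changes were 0.91 (SE 0.11, edgeR adjusted p = 2.43e-05) and −0.37 (SE 0.098, edgeR adjusted p = 0.00754), and the difference of 1.27 passed (edgeR adjusted p = 1.75e-06). The call in NRK-49F was lost in 7 of 8 fits with 1 library left out, all but the one without N14. In those 7 fits the log2 fold change lay between −0.39 and −0.33. The call was also lost with library totals alone (−0.32, edgeR adjusted p = 0.0102) and without the filter (−0.35, 0.0118). Within number 21 the log2 fold change was −0.25 (edgeR adjusted p = 0.328).

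Atf4, a transcription factor of the amino acid response, rose in NRK-52E from 288, 237, 217 and 240 FPM in N1, N2, N5 and N6 to 1189, 816, 816 and 792 FPM in N3, N4, N7 and N8, with N3 far above the rest. Its log2 fold change was 1.86 (SE 0.15, edgeR adjusted p = 1.82e-06). In NRK-49F the value was 0.26 (edgeR adjusted p = 0.105). It was a DEG there without N16 (0.38, edgeR adjusted p = 0.00918) and within number 20 (0.54), and was −0.02 within number 21. The difference between the lines was 1.59 (edgeR adjusted p = 6.25e-06). Bach1, a repressor at antioxidant response elements, rose in NRK-49F (1.34), and Mafg, a small Maf partner, rose in NRK-49F as well (0.93). In the fit of all 16 libraries Mafg was not a DEG in NRK-49F (edgeR adjusted p = 0.0209), nor was it within number 21 (1.12, edgeR adjusted p = 0.0244). In NRK-52E, N8 was the lowest acidic library for both, at 19.1 FPM for Bach1 and 18.7 for Mafg, and neither was a DEG with all 8 libraries. Without N8 both were, with log2 fold changes of 0.70 for Bach1 (edgeR adjusted p = 0.00118) and 1.39 for Mafg (edgeR adjusted p = 7.53e-06). Leaving out N8 also gave more DEGs among all genes, 8914 of 13934 (64%), beside 7793 of 13735 with all 8 libraries. With all 8 libraries the log2 fold change of Mafg was 1.10 (edgeR adjusted p = 0.0150), and it was a DEG in NRK-52E without the filter (edgeR adjusted p = 0.00785), in the fit of all 16 libraries (1.09, edgeR adjusted p = 0.00542), within number 21 (1.33, edgeR adjusted p = 0.00399) and by DESeq2 alone (adjusted p = 0.00356). Keap1, which holds Nrf2 back in the cytosol, had log2 fold changes of 0.05 and 0.03 and was not a DEG in either line.

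**Figure D3:**
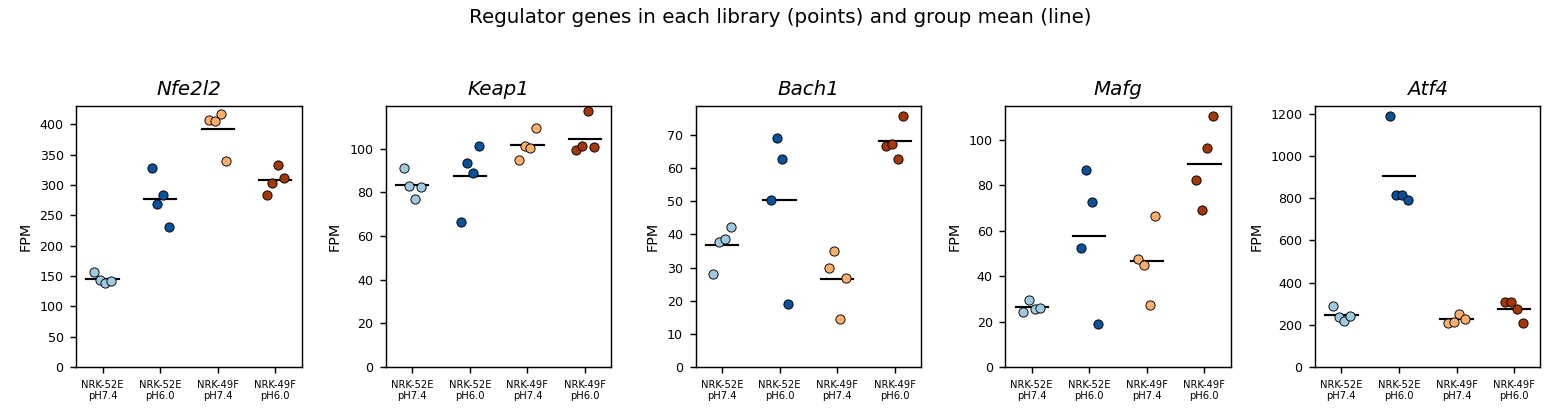
Levels of 5 regulator genes (FPM, linear axes from 0) in the 4 groups of cell line and pH, with points for single libraries and lines for means of 4 libraries. Nfe2l2 and Atf4 lie higher at pH 6.0 in NRK-52E, while Nfe2l2 lies lower at pH 6.0 in NRK-49F, where its values are between 283 and 332 FPM.

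Genes with the pattern most like that of Gclm and of Slc7a11 were found by the root mean square difference of log2(FPM + 1) over the 16 libraries, each gene centred on its mean, among 9753 genes with a mean of at least 10 FPM. For Gclm these were Cep76 (0.312), Cry1 (0.373) and Luc7l (0.407), where the median over all genes was 1.57. For Slc7a11 they were Slc29a1 (0.498), Eps8 (0.515) and Hmga1 (0.537), with a median of 2.1. These values describe likeness and carry no test.

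In the rn6 build the genes lie on several chromosomes. For uptake and synthesis, these are Slc7a11 (ENSRNOG00000010210) on chromosome 2, Gclc (ENSRNOG00000006302) on chromosome 8, Gclm (ENSRNOG00000013409) on chromosome 2 and Gss (ENSRNOG00000018964) on chromosome 3. For reduction they are Gsr (ENSRNOG00000014915) on chromosome 16 and Glrx (ENSRNOG00000012183) on chromosome 2, and for breakdown Ggt1 (ENSRNOG00000047697) on chromosome 20, Ggct (ENSRNOG00000034084) on chromosome 4 and Oplah (ENSRNOG00000011781) on chromosome 7. Fragments that map to several places were counted at each of them, so values of genes with close copies are uncertain, and the counting is not stated to use strand.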

How the data were processed

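The authors made the counts from paired reads of 2 × 150 bp of poly(A)-enriched RNA, mapped to the rat genome rn6, and deposited raw fragment counts per Ensembl gene from featureCounts without normalization. The published methods name tophat2 as the aligner, whereas the submitters' processing notes name HISAT2 2.1.0; which one made these counts is not settled here. Groups came from the sample labels. FPM values were computed with edgeR's cpm function and TMM factors over the 16 libraries. Both the lines and the pH values were compared over 8 libraries each, by the quasi-likelihood test of edgeR 4.0.16 (TMM, filterByExpr) and by DESeq2 1.42.0 in R 4.3.3, adjusted by Benjamini-Hochberg over all tested genes. Each SE was derived from the fold change and its F statistic (ratio to the root of F), and 95% intervals are ± 1.96 SE. Differences between the lines were tested in one edgeR model of the 4 groups. Scripts were tested on simulated data. Named genes were all members, all regulators, up to 3 DEGs per list, direction and line with the largest change, 3 pattern neighbours of Gclm and of Slc7a11 (those of Gclc are not used here) and the markers. Chac2 was named in addition, and no alternatives are given for it. Members and lists were chosen with earlier results of these data known. Promoters were read with Python 3.11.15 and pandas 2.3.3. Alternatives covered scaling, filter, tool, threshold, the number in the column names and each library left out. The bound for Ggt6 covers counting error alone.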

Additional observations from a re-analysis of the deposited data

Results flagged for a closer look

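A library far from the other 3 of its group, by Dixon's criterion, was found in 10 of 149 groups tested over 38 genes, where chance at 1 in 20 gives 7.45. None of the 10 was in a glutathione gene of the set. In NRK-49F at pH 7.4, N14 had 340 FPM of Nfe2l2, below 405 to 417 FPM in the others. In NRK-49F at pH 6.0, N15 was far off for Keap1 (117 FPM, others 99.2 to 101), Mtr (35.2 FPM, others 39.4 to 39.6) and Cndp2 (33.9 FPM, others 28.5 to 29.4). There, N12 stood apart for Dpep1 (0.398 FPM, others 0.0975 to 0.133) and N11 for Esd (106 FPM, others 121 to 122). In NRK-52E at pH 6.0, N3 stood apart for Atf4 (1189 FPM, others 792 to 816), N8 for Ggact (6.77 FPM, others 3.64 to 3.85) and N4 for Dpep1 (0.539 FPM, others 0.141 to 0.205). In NRK-52E at pH 7.4, N1 stood apart for Slc25a39 (129 FPM, others 100.4 to 102).

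The pH response differed between the lines in 21 of the 38 genes by edgeR's interaction test, 5 of them in the set. Of all genes in this test, 19.4% differed in the positive and 17.6% in the negative direction, and the 38 genes include list genes that were named because they had the largest changes with pH. On the log2 scale, NRK-52E minus NRK-49F, the differences within the set were −1.09 for Gclc, 0.93 for Gclm, 0.47 for Gsr, −2.02 for Ggt1 and −0.77 for Oplah. For the regulators they were 1.27 for Nfe2l2 and 1.59 for Atf4. For cysteine supply and use they were 2.87 for Slc3a2, 2.03 for Slc1a4, 0.66 for Mat2b, −1.75 for Mtr and −0.62 for Csad. Of the other breakdown genes, Chac1 differed by 2.53, Anpep by −3.09, Cndp2 by 1.62 and Nit1 by 0.64. Of the glutaredoxins, Glrx3 differed by 1.59 and Glrx5 by 0.72. The remaining differences were −1.66 for Abcc1, 0.81 for Slc25a39 and 0.68 for Esd. With library totals alone, the differences of Mat2b (0.42, edgeR adjusted p = 0.0127), Nit1 (0.40, edgeR adjusted p = 0.0159) and Esd (0.44, edgeR adjusted p = 0.0161) did not pass. That of Csad did not pass without any 1 of N1, N2, N4, N5, N6, N7, N9, N10, N13, N14, N15 or N16 (edgeR adjusted p up to 0.0199, differences from −0.65 to −0.51).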

How the results depend on the processing

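Of the values of single genes under alternatives other than leaving out a library, 1125 kept direction and side of the threshold, 40 lost their call, 21 gained one and 18 changed sign. With 1 library left out, these numbers were 1232, 57, 14 and 41. The cause of these changes was not tested. With library totals alone, the median log2 value of all genes was −0.21 in NRK-52E, 0.04 in NRK-49F, 0.34 and 0.12 between the lines at pH 7.4 and 6.0, and −0.25 for the difference of the pH responses, where TMM gave 0.00, −0.00, 0.03, −0.03 and −0.01. The number in the column names, shared by libraries of both pH groups of a line, was fitted as a covariate for the pH responses and their difference. The levels of the lines at each pH were not adjusted for it. Number 20 occurs in NRK-49F alone and number 22 in NRK-52E alone, so line and number are partly confounded there. In NRK-52E, Slc7a11 had between 2 and 60 counts per library and Ggt1 between 17 and 53. The part of these low counts in their missing calls was not tested.

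In NRK-52E, 3 members were higher with number 22 alone and 1 lower with number 21 alone, fits of 2 libraries per pH in which 20.2% and 37.7% of all genes were called in either direction, beside 7793 of 13735 with all 8 libraries. For the difference of the pH responses, 1 member was more positive with library totals alone, 1 to 2 with a library left out, and 3 to 5 were more negative with a library left out. In this test, 37% of all genes were called with library totals alone and 31.6% to 40% with a library left out, beside 5428 of 14679 with all 16 libraries.

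The values that changed sign follow. With library totals alone, Keap1 was at −0.155 in NRK-52E, and the differences between the lines were −0.115 for Slc7a11, −0.224 for Keap1, −0.0568 for Mafg, −0.125 for Ggact, −0.107 for Dpep1 and −0.149 for Abcc5. That of Keap1 was −0.00222 with DESeq2 size factors and −0.00434 with DESeq2's test. With number 22 alone, NRK-52E gave 0.207 for Ggt1 and −0.0114 for Bach1, and with number 21 alone −0.167 for Keap1. NRK-49F gave −0.0157 for Atf4, −0.531 for Chac1, −0.0224 for Nit1 and −0.0958 for Glrx3 with number 21 alone, and 0.0297 for Slc25a39 and −0.0656 for Glo1 with number 20 alone.

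With 1 library left out, log2 fold changes in NRK-52E ran from −0.587 to 0.115 for Ggt1 and from −0.0363 to 0.155 for Keap1. In NRK-49F they ran from −0.0178 to 0.0583 for Keap1, −0.152 to 0.343 for Chac1, −0.0479 to 0.146 for Glrx3, −0.0423 to 0.0818 for Glo1 and −0.0389 to 0.115 for Esd. The line difference of Ggct at pH 6.0 ran from −0.175 to 0.134. Differences of the pH responses ran from −0.227 to 0.704 for Slc7a11, −0.0728 to 0.0599 for Keap1, −0.0926 to 0.457 for Mafg, −0.0886 to 1.10 for Slc7a9, −0.167 to 0.260 for Ggact and −0.462 to 0.598 for Dpep1.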
